A study of Caenorhabditis elegans with 4 samples.

Results

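Narrow SEM-4 regions that lie in dense clusters made up 1332 of the 7554 regions of the combined ChIP-seq list from Caenorhabditis elegans L2 larvae. Neighbouring regions of that list were joined into a chain wherever the start of one lay at most 5000 bp beyond the end of the one before it, and chains of 6 or more regions were kept. The 1332 are the regions under 1000 bp wide in the 197 chains so obtained, and the 5696 other regions under 1000 bp are the comparison. A further 200 regions in these chains and 326 outside them were 1000 bp wide or more. Position and width in the combined list thus chose the regions, so their number, spacing and width are descriptions. The combined list is deposited as the joint list of the same ChIP libraries, so its q-values and the overlap with the replicate lists are not independent of that choice either, and no test is given for any of them.

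All samples came from hermaphrodites of strain OP57, grown at 20 °C to the L2 stage. OP57 carries the allele unc-119(ed3) and the transgene wgIs57, which was introduced by bombardment. The transgene encodes SEM-4 with a TY1, EGFP and FLAG tag and supplies a copy of unc-119 for the mutant background. Chromatin crosslinked with 2% formaldehyde was collected with an antibody to GFP in 2 ChIP samples, and 2 input samples hold total DNA kept from 10% of the extract. Both inputs and both ChIP samples carry the transgene, and reads from its sem-4 and unc-119 inserts cannot be told apart from those of the genes themselves. The study has no sample without it. Whole larvae were used, so a region may be bound in a few cells or in many. Whether the 2 ChIP samples came from separate cultures is not stated in the labels.

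SEM-4 belongs to the Spalt family of zinc-finger proteins, which bind DNA and regulate transcription. In C. elegans it is needed for the fates of certain neurons, among them the motor neurons that drive egg laying, and for those of vulval precursor cells and of the sex myoblasts. Transcription factors act at short DNA sites in promoters and other regulatory DNA, and a regulatory region can hold several such sites. In C. elegans ChIP-seq collections many factors are also found together at shared, highly occupied regions. The study asked where tagged SEM-4 is bound at the L2 stage. No gene is assigned to a region here, because an annotation on the build of the files (WormBase WS220) was not used.

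The data are lists of regions called with PeakSeq, which compares ChIP reads with a control, and each region comes with its boundaries and a q-value. Replicate 1 has 5386 regions and replicate 2 has 2527. The lists give no read counts, so depth is unknown. The measure of strength is the authors' q-value, as −log10. It grows with enrichment and also with the number of reads, so values of different lists are set side by side without a comparison of binding. A region of the combined list counts as present in a replicate where it shares at least 1 bp with a region of that replicate's list. The 95% Wilson intervals of shares cover counting error only and treat regions as independent.

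The 197 chains held 1532 regions and spanned 2.84 Mb, or 2.83% of the 100.2 Mb between position 1 and the last region of each chromosome. Most chains were short. There were 149 with 6 to 8 regions and 28 with 10 or more, and the median span was 13570 bp (range 4628 to 35513 bp). Called regions covered a median of 28.7% of a chain, from 9.64% to 78.1%, so most of the DNA in a chain was not called. In 86 chains all regions were under 1000 bp, 60 chains had 1 wider region and 51 had 2 or more. On the edge of the rule, 64 chains had exactly 6 regions and 119 chains, left out, had 5. There were 14 clustered narrow regions of 950 bp or more, and 21 regions of the chains, left out, were 1000 to 1049 bp wide. By the rule's measure, the next start minus the end before it, distances of 4901 to 5000 bp, which join, numbered 23. Distances of 5001 to 5100 bp, which do not join, numbered 30.

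The chain with most regions lay on chromosome II from 6819624 to 6853379. It had 18 regions, of which 12 were narrow and 6 were 1000 bp or wider. Regions covered 55.6% of its length, and 11 of the 18 were present in both replicates. Its narrow regions were 237 to 879 bp wide, and the strongest of them, at 6820886 to 6821569, had a −log10 q of 25.7 in the combined list, 17.5 in replicate 1 and 10.7 in replicate 2. The next narrow region, from 6821925 to 6822793, had 22.2, 15.4 and 6.51 in the same lists. Another, from 6835428 to 6835897, had 18.5, 12.2 and 6.64. All 3 were thus present in each list, with the lowest value in replicate 2. The last 2 regions of the chain, from 6849338 to 6849804 and from 6853058 to 6853379, had 2.00 and 2.58 in the combined list and were in neither replicate. This stretch also held 17 regions of replicate 1 and 16 of replicate 2, the most of any chain in both lists.

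A second chain on chromosome II, from 5320131 to 5350632, had 16 regions, of which 14 were narrow. Some of its stronger regions lay between weak ones. Its 2 wide regions, from 5335162 to 5336393 and from 5336629 to 5337754, were instead direct neighbours, with 14.1 and 17.7 in the combined list. The narrow region at 5329963 to 5330662 had a −log10 q of 17.7 in the combined list, 11.2 in replicate 1 and 7.45 in replicate 2, while the regions on its left and right had 4.72 and 2.57 in the combined list. The region from 5346347 to 5346710 had 14.2, 9.73 and 4.79. Of the 14 narrow regions, 4 were in both replicates, 5 in replicate 1 only and 5 in neither.

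On chromosome III, 15 regions ran from 6339848 to 6368016, and 13 of them were narrow. This chain had the joint highest number of narrow regions in both replicates, 6 of 13, and only 1 of the 13 was in neither. Its strongest narrow region, from 6348516 to 6348972, had a −log10 q of 14.2 in the combined list, 7.35 in replicate 1 and 5.65 in replicate 2. The region from 6352352 to 6352890 had a higher value in replicate 2, 6.36, than in replicate 1, 4.31, and 10.8 in the combined list. On X, the largest chain had 14 regions from 12158558 to 12188970, of which 10 were narrow and 3 of these were in both replicates. Its strongest region was narrow, from 12182677 to 12183555, with 13.1, 7.27 and 4.45 in the combined list, replicate 1 and replicate 2.

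The remaining 2 chains described in full were on chromosome I, and fewer of their narrow regions were present in both replicates than in the chains above. Chromosome I as a whole was low: 12.6% of its clustered and 11.9% of its other narrow regions were in both, against 28.0% of all combined regions. The low counts are thus not particular to these chains. From 14922613 to 14953475 there were 14 regions, 13 of them narrow. Of these 13, 2 were in both replicates, 6 in replicate 1 only, 1 in replicate 2 only and 4 in neither. From 516464 to 548324 there were 13 regions, 10 of them narrow, a number of regions that 4 chains shared, with 2 in both replicates and 6 in neither. The strongest region of the latter chain was narrow, from 535276 to 535771, with a −log10 q of 17.5 in the combined list, 10.9 in replicate 1 and 3.51 in replicate 2. The other chains of 13 were 2 on IV and 1 on III. The largest on V had 12 regions from 12517818 to 12543246, with 3 of its 11 narrow regions in both replicates and 7 in replicate 1 only. Of the 2 on IV, the one from 5746892 to 5766040 had narrow regions only, with 3 in both replicates, 8 in replicate 1 only and 2 in neither. The one from 4014515 to 4035241 contained the widest of all clustered narrow regions, 998 bp from 4024027 to 4025024, which had 30.2, 20.8 and 11.1 in the 3 lists. The narrowest were 3 regions called as a single base pair, of which the one on III at 3697393 had 3.68 in the combined list and 2.92 in replicate 1.

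**Figure D1:**
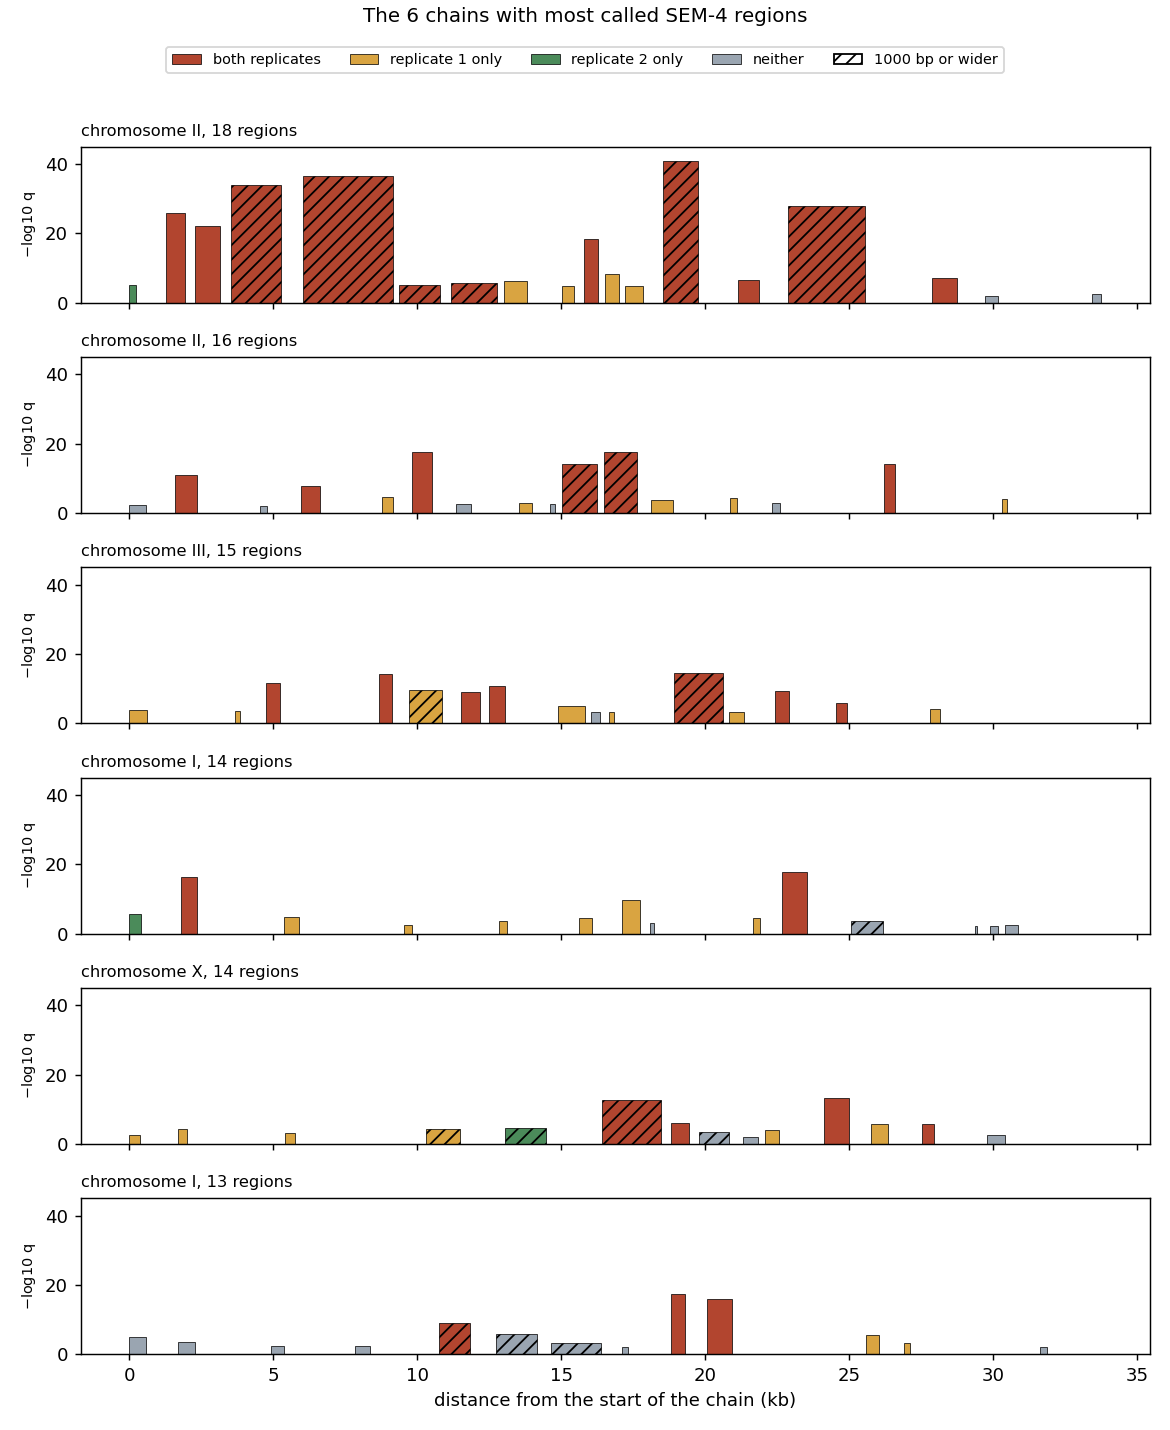
Each panel is 1 of the 6 chains with most regions (the last is tied with 3 others of 13 regions and was taken by order of chromosome and start), and each bar is a called region drawn over its width, with distance from the start of the chain in kb on the horizontal axis and −log10 of the authors' combined q-value on the vertical axis. Colour gives the replicate lists in which a region is present and hatching marks regions of 1000 bp or more; tall and short bars lie side by side in every panel, and the first chain reaches 41.0.

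The strongest clustered narrow regions were spread over chromosomes I to V. Among the 10 with the lowest q-values that were present in both replicates, 4 were on II, 2 on I, 2 on III, 1 on IV and 1 on V. Their best ranks ran from 18 to 239 in replicate 1 and from 17 to 220 in replicate 2, where rank 1 is the lowest q-value of a list. Of the 10, 8 were the strongest region of their chain, wide regions included, 4 lay in chains with no wide region and 3 lay at the end of a chain. All 10 had a lower −log10 q in replicate 2 than in replicate 1.

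The lowest q-value, 2.51e-76, belonged to a region of 440 bp on II from 10563264 to 10563703. Its −log10 q was 75.6 in the combined list, 63.3 in replicate 1 and 37.0 in replicate 2. It was the fifth of 6 regions in a chain from 10537937 to 10567615, of which 3 were wide, and its nearest neighbours were 3243 and 3780 bp away. The second, 622 bp on III from 12841097 to 12841718, had 50.1, 31.5 and 21.6, and all 6 regions of its chain were narrow. A neighbouring pair on II, from 11759189 to 11759653 and from 11761666 to 11762354, closed a chain of 9 regions and had 42.0 and 43.7 in the combined list. In replicate 1 the pair had 30.9 and 31.1, and in replicate 2 they had 13.0 and 12.5, so its members were close to each other in each of the 3 lists.

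The other 6 had −log10 q of 33.0 to 37.0 in the combined list. On chromosome I, the region from 9097337 to 9098115 had 37.0, 18.1 and 10.4 in the combined list, replicate 1 and replicate 2, and the region from 9721817 to 9722714 had 35.6, 15.3 and 10.7. The region on II from 14039871 to 14040794 had 36.6, 22.1 and 17.3. On III, the region from 7729237 to 7730029 had 36.3, 19.6 and 18.5, the closest values in the 2 replicates among the 10. Those on IV from 7319832 to 7320613 and on V from 10897113 to 10897569 were the last regions of their chains, with 33.3 and 33.0 in the combined list.

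The 3 strongest clustered narrow regions without a counterpart in either replicate lay on chromosome I. A region from 9095340 to 9095908 had a combined −log10 q of 6.71 and lay 1428 bp to the left of the strong region at 9097337 in the same chain. A further 2, from 10037090 to 10038084 and from 10031268 to 10032052, had 6.12 and 6.03 and shared a chain of 9 regions. Their combined ranks were 1926, 2178 and 2210.

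Clustered narrow regions were slightly stronger and wider than narrow regions elsewhere. The median −log10 q was 4.0 for the clustered regions (95% order-statistic interval 3.79 to 4.22; quartiles 2.73 and 6.69) and 3.66 for the others (3.59 to 3.72; quartiles 2.65 and 5.88). A q-value of 1e-10 or less was found for 168 clustered regions, or 12.6%, and for 10.5% of the others. The median widths were 376 bp (359 to 395) and 333.5 bp (329 to 339). Both medians were higher in the clustered regions on all 6 chromosomes. The 200 wide regions of the same chains stood far above both, with a median −log10 q of 16.1.

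The lowest values were those of regions with no neighbour within 5000 bp. Single narrow regions had a median −log10 q of 3.48 and a median width of 307 bp, and narrow regions in chains of 2 to 5 had 3.76 and 351.5 bp. Among narrow regions in chains of exactly 3, 4 and 5 the median −log10 q was 3.85, 3.86 and 3.85. From 6 regions upward it ran from 3.80 to 4.07, within intervals that overlap those of chains of 3 to 5. The values therefore changed between 1 and 3 regions and showed no step at 6.

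**Figure D2:**
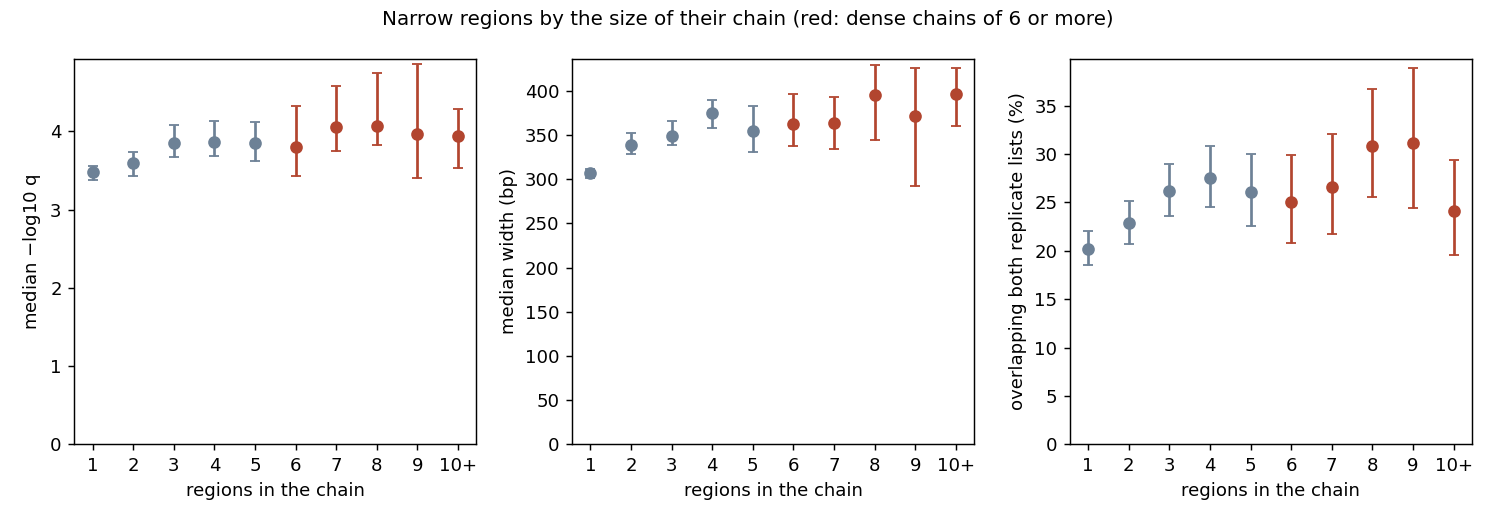
Narrow regions are grouped by the number of regions in their chain (1 means no neighbour within 5000 bp), and the panels give the median −log10 q, the median width in bp and the share present in both replicates, with 95% intervals as bars. Red points are the chains of 6 or more; they lie at the level of chains of 3 to 5, and single regions are lowest in each panel, at 3.48, 307 bp and 20.2%.

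Over all chromosomes together, support in the replicates rose with strength and was nearly the same inside and outside the clusters. Of the 1332 clustered regions, 360 were present in both replicates, or 27.0% (24.7 to 29.5), against 28.0% of all combined regions. For the other narrow regions the share was 23.5% (22.4 to 24.6). The difference of 3.50 percentage points had a 95% Newcombe interval of 0.93 to 6.18, which treats neighbouring regions as independent. A further 490 clustered regions were in replicate 1 only and 60 in replicate 2 only. In neither were 422, or 31.7% (29.2 to 34.2), against 31.5% of all combined regions and 34.1% of the other narrow ones. The difference from the other narrow ones was −2.39 points, with an interval of −5.13 to 0.43, which includes 0. The clustered share in neither was the lower on 3 of the 6 chromosomes. Taken by list, 850 clustered regions were in replicate 1, or 63.8% against 64.4% of all combined regions, and 420 were in replicate 2, or 31.5% against 32.0%.

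Averaged over strength, the shares were closer, although single classes differed. All narrow regions were put in 10 equal classes of combined −log10 q. In the strongest class, above 10.4, 154 of 158 clustered regions were in both replicates, or 97.5%, and 96.7% of the others. In the next class the shares were 66.5% and 74.1%, and in the class below it, from 5.36 to 6.90, they were 45.7% and 44.9%. In the weakest class no clustered region was in both and 80.0% were in neither, beside 85.5% of the others. In the fourth class from the weak end, 59.8% of the clustered regions (51.0 to 68.1) were in neither, beside 48.8% of the others (44.7 to 52.9), and in the class from 4.37 to 5.36 the shares were 8.57% and 4.45%. The clustered regions had the higher share in both in 4 classes and the lower in 4. When the other narrow regions were weighted to the clustered regions' numbers per class, their share in both became 27.6%, above the 27.0% of the clustered regions, and their share in neither became 31.0%. The width difference was found in the stronger classes: the clustered regions had the higher median width in 5 of 10 classes, among them the 4 strongest. In the strongest class the medians were 635.5 and 569 bp, and in the weakest 211 and 218 bp.

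**Figure D3:**
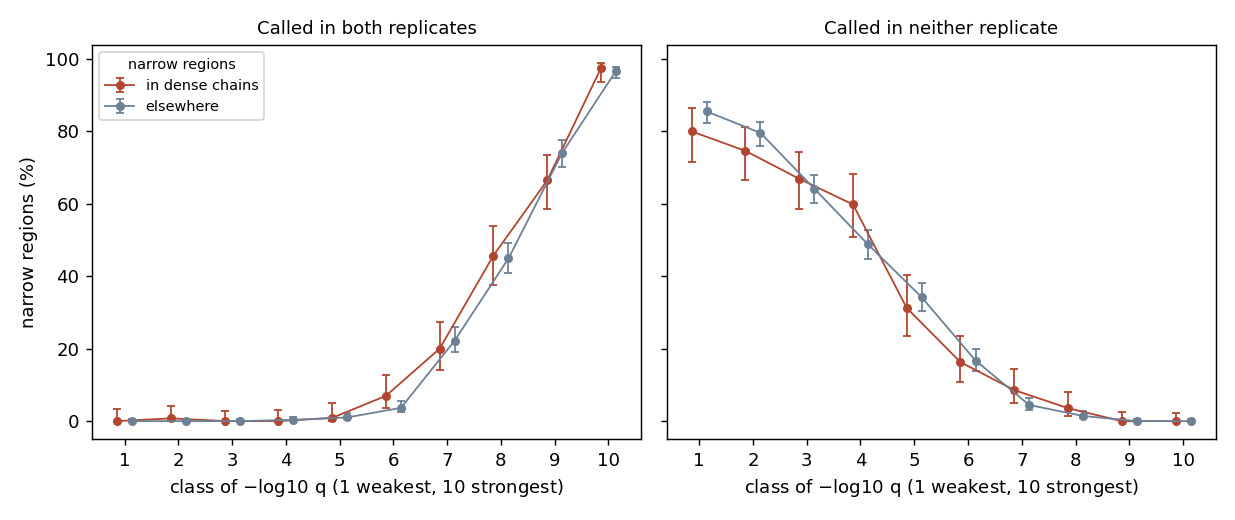
Share of narrow regions present in both replicates (left) and in neither (right), in percent, over 10 equal classes of combined −log10 q, with 95% Wilson intervals. Regions in dense chains (red) and elsewhere (blue) follow nearly the same course, reaching 97.5% and 96.7% in both replicates in the strongest class.

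Where a clustered region was present in both replicates, its strength there was also close to that of regions elsewhere. The 360 clustered regions in both lists had a median −log10 q of 9.01 in the combined list, 4.95 in replicate 1 and 3.46 in replicate 2. For the 1340 others the medians were 9.07, 5.05 and 3.36. Divided by its replicate 1 value, the replicate 2 value had a median of 0.75 for the clustered regions and 0.71 for the others, and replicate 2 had the lower value in 274 of the 360.

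Regions in a chain kept a distance from each other. Gaps are given here as the bases between neighbours, 1 less than the rule's measure. The median gap between neighbours was 1076 bp in the dense chains (quartiles 505 and 2145 bp) and 1418 bp in chains of 2 to 5. Of 1335 gaps in the dense chains, 327 were under 500 bp, or 24.5%, and 68 were over 4000 bp. The smallest gap anywhere in the combined list was 200 bp. It was 200 bp in replicate 1 and 201 bp in replicate 2 as well, although 306 gaps of the combined list were under 300 bp. No region in any list thus lay nearer than that to its neighbour, and whether the caller or the authors joined closer ones is not given in the sources used here.

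Very few neighbours in a dense chain were parts of 1 region of a replicate. Of 1278 neighbouring pairs with at least 1 narrow region, both regions were present in replicate 1 in 582 pairs, and in 8 of these they lay under the same replicate 1 region. In replicate 2 both were present in 184 pairs and lay under the same region in 7. All 15 pairs had gaps under 500 bp, and the widest such gap was 363 bp. Counted by region, 14 of the 850 clustered regions in replicate 1 and 12 of the 420 in replicate 2 shared a replicate region with another region of the chain. In the reverse direction, 6 clustered regions overlapped more than 1 region of replicate 1, and 2 more than 1 of replicate 2.

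The strength of a clustered narrow region bore little relation to that of a neighbour that was also narrow. Over 1027 pairs of adjacent clustered narrow regions, Spearman's rho of combined −log10 q was 0.08. This is a description across regions of 1 list, whose values share libraries and depth. The median difference within a pair was 2.40. The strongest region of a chain had a median −log10 q of 17.1 over the 197 chains, and a median of 1.49 times the second, a ratio that its choice as the strongest keeps at 1 or above. In 60 chains it was at least 2 times the second. The strongest region was narrow in 117 chains, including 31 of the 111 chains that also held a wide region.

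The strength of clustered narrow regions did not fall with the number of places from the strongest region of the chain. The 290 clustered regions next to it had a median −log10 q of 3.79, those 2, 3 and 4 places away had 3.56, 3.63 and 4.17, and the 280 at 5 or more places had 3.68. Their shares in both replicates were 22.8%, 20.2%, 22.5%, 21.8% and 23.2% in the same order. The 117 that were themselves the strongest had 12.4 and 77.8%, which their choice by strength sets. Wide regions are left out of these values. Longer chains have more places far from the strongest region, so the groups also differ in the chains they hold.

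**Figure D4:**
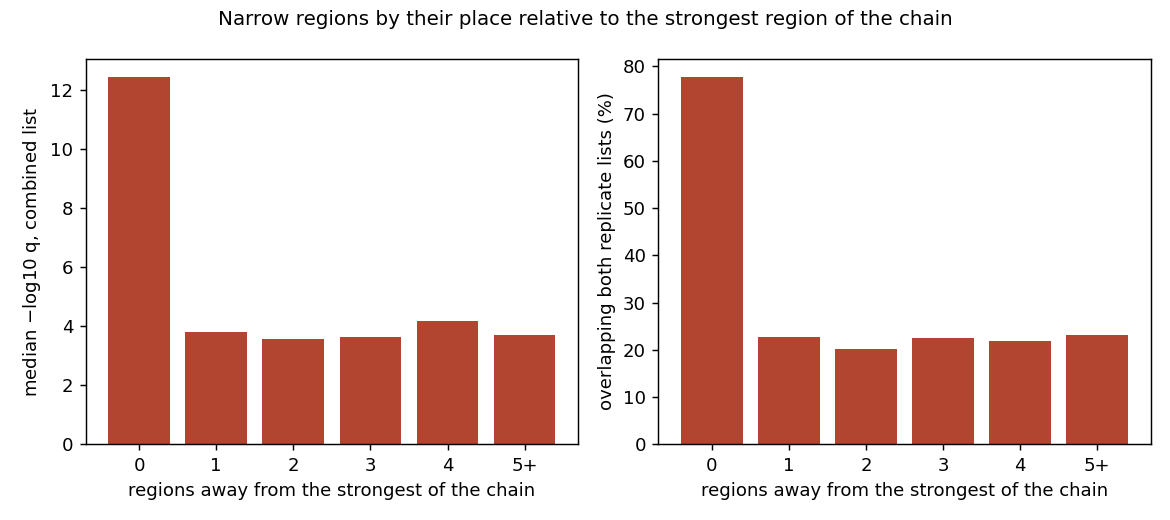
Median combined −log10 q (left) and share present in both replicates in percent (right) of clustered narrow regions. The horizontal axis is the number of places from the strongest region of the chain (0 is the strongest itself, 1 a region next to it). Bars 1 to 5+ are level, between 3.56 and 4.17 and between 20.2% and 23.2%; the first bar is high because those regions were picked by strength.

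Clustered regions beside a wide region were wider than the rest and had similar strength and support. The 238 clustered regions directly beside a region of 1000 bp or more had a median −log10 q of 4.17 and 28.2% were in both replicates. For the 1094 others the values were 3.99 and 26.8%. The median widths were 421 bp (381 to 487) and 363 bp (352 to 386). In chains with at least 1 wide region the 708 clustered regions had 4.27, 27.8% and a median width of 405.5 bp, and in chains with none the 624 had 3.78, 26.1% and 349.5 bp. Regions at the end of a chain were narrower than those inside it, with medians of 345 and 396 bp, and had 25.9% and 27.4% in both replicates.

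Dense clusters were most frequent on chromosomes III and IV and least frequent on X. Chromosome IV held 373 clustered narrow regions in 52 chains and III held 315 in 46, together 51.7% of the 1332. Of the other narrow regions, 36.6% were on these chromosomes. The numbers were 199 in 31 chains on II, 190 in 28 on V and 174 in 25 on I. X had 81 in 15 chains, or 6.08% of the clustered and 16.0% of the other narrow regions.

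The share of narrow regions that lay in dense chains was highest on III and IV, which had most narrow regions per Mb. It did not follow density in order, and a link with density was not tested. It was 25.2% on IV (23.1 to 27.5), 24.3% on III (22.1 to 26.7), 19.2% on II, 16.8% on I, 16.0% on V (14.0 to 18.2) and 8.15% on X (6.60 to 10.0). Narrow regions per Mb numbered 84.6 on IV, 94.1 on III, 68.0 on II, 68.8 on I, 56.7 on V and 56.2 on X. III was denser than IV and I was denser than II, yet each had the lower share of its pair. V and X had almost the same density and shares of 16.0% and 8.15%. Regions enter a dense chain together, in 28 chains on V and 15 on X, so the intervals, which treat regions as independent, are too narrow, and the shares are a description. Gene content was not examined, so no preference of SEM-4 can be read from these shares.

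Chromosome V differed from X in where its regions lay. On V, 177 of the 190 clustered regions, or 93.2%, were centred in the middle 50% of the chromosome, beside 66.3% of the other narrow regions. On X the shares were 72.8% and 48.4%. The clustered regions had the higher central share on all 6 chromosomes, with the smallest gap on II, 66.8% and 65.6%. Over the genome 968 of the 1332 were central, or 72.7% (70.2 to 75.0), and 59.4% of the others (58.1 to 60.6). Clusters form where regions are dense, so this share follows in part from the rule.

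Support by chromosome was low on I, for clustered and other narrow regions alike. On I, 22 of 174 clustered regions were in both replicates, or 12.6% (8.50 to 18.4), and 88 were in neither, or 50.6%. The other narrow regions there had 11.9% and 49.0%. Strength was not lowest on I. The median −log10 q of the clustered regions was 4.11 on I and ran from 3.69 on X to 4.33 on III elsewhere. For the other narrow regions it was 3.62 on I and ran from 3.29 on X to 4.17 on III elsewhere. Why support was low on I was not tested. On III, 34.3% of the clustered regions were in both replicates, on X 28.4%, on IV 27.3%, on II 27.1% and on V 26.8%, with intervals that overlap each other. The clustered share in both was above that of the other narrow regions on 5 chromosomes and below it on IV, where it was 28.1% for the others. The interval of the clustered regions included the others' share on each of the 6 chromosomes.

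**Figure D5:**
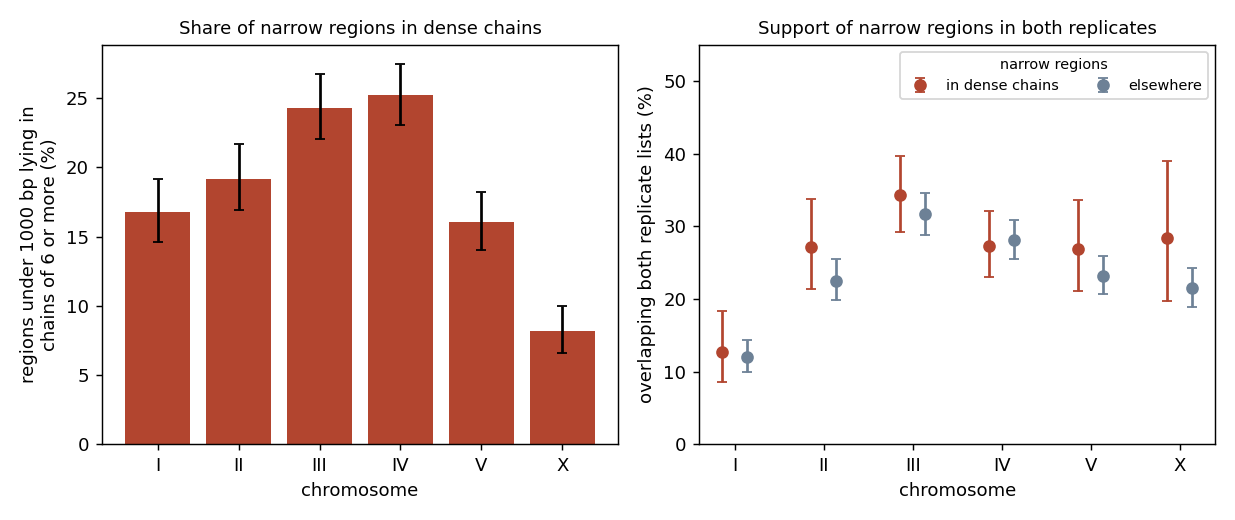
Left, share in percent of the regions under 1000 bp that lie in chains of 6 or more, by chromosome; right, share in percent of narrow regions present in both replicates, in dense chains (red) and elsewhere (blue). Bars and points have 95% Wilson intervals. IV and III are highest on the left at 25.2% and 24.3% and X lowest at 8.15%, and on the right I is lowest in both groups.

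Each chain contained at least 1 region of replicate 1, and 15 contained none of replicate 2. The median number was 5 of replicate 1 and 3 of replicate 2. In 91 chains replicate 1 had 6 or more regions, and in 20 chains replicate 2 did. At least 1 narrow region was present in both replicates in 163 of the 197 chains, and at least 2 in 113. Of all combined regions, 64.4% were in replicate 1 and 28.0% in both. Chains held a median of 6 narrow regions, so these counts follow in part from the number of regions in a chain. They are no measure of support for a chain. Chains in which 6 narrow regions were in both numbered 3. Besides the chain of 15 on III, these were a chain of 9 on III from 7718314 to 7734082, with 6 of 8, and a chain of 8 on IV from 7036676 to 7051291, with 6 of 8. In no chain were all regions present in both replicates, and in no chain were all narrow regions absent from both.

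When each replicate list was chained by the same rule, replicate 1 gave 98 dense chains and replicate 2 gave 13. Of these, 84 and 12 overlapped a dense chain of the combined list, or 85.7% of the chains of replicate 1 and 92.3% of those of replicate 2. The same 84 and 12 matches were 42.6% and 6.09% of the 197 combined chains. The lists differ in length, and their numbers of dense chains were not compared at equal length. Of the 13 chains of replicate 2, 10 overlapped a dense chain of replicate 1. The largest in both was the one on II, with 17 regions from 6820916 to 6848367 in replicate 1 and 16 from 6819661 to 6848376 in replicate 2.

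The combined chains that were also dense in each replicate numbered 10. Of these 5 were on III, 2 on V and 1 each on II, IV and X. The chain on III from 8971602 to 8987224 was the one among them with no wide region. It had 10 narrow regions in 15623 bp, of which 4 were in both replicates, 4 in replicate 1 only, 1 in replicate 2 only and 1 in neither. Its strongest, from 8981892 to 8982601, had a −log10 q of 24.4 in the combined list, 11.8 in replicate 1 and 10.7 in replicate 2. The chain on X from 11463471 to 11486238 was of the opposite kind, with 5 wide regions and 2 narrow ones, neither of them in both replicates.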

How the data were processed

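ChIP-seq regions from 2 SEM-4 ChIP samples were analysed, and the 2 inputs have no list of their own here. Per the file headers, the lists are PeakSeq regions on WormBase WS220, carried over from another build. The deposited value of each region is the authors' q-value, a p-value adjusted for multiple testing, at most 0.00998 in the combined list. Not given in the sources used here are the aligner, the PeakSeq version, filters, the control and the way of combining the replicates. Comments in the combined file name 5 regions changed by the carry-over, none of them a clustered narrow region.

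From these lists, chains, overlaps of at least 1 bp, −log10 q, Wilson and Newcombe intervals and order-statistic intervals of medians were computed with pandas 2.3.3, numpy 2.4.6 and scipy 1.17.1 under Python 3.11.15, and figures were drawn with matplotlib 3.10.9. Chaining and overlap were tested on simulated lists. Regions named are the 6 chains with most regions and the first per chromosome (ties by chromosome name, then start), the 10 lowest q-values in both replicates, the 3 lowest in neither, and the narrowest and widest; others were chosen after their values were seen. The clustered regions and these rules were chosen with earlier results of these data known. Depth is unknown. Alternatives changed the gap, chain size, width, q-value limit, overlap, chromosomes and replicates. No sequence is shown, because a WS220 genome was not used.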

Additional observations from a re-analysis of the deposited data

How the results depend on the processing

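Of 54 values recomputed with 1 choice changed, 26 stayed within 1.5 times the number or within the 95% interval of the reported value. The other 28 moved. Counts, shares and medians of −log10 q cannot be negative, so only the 12 recomputed differences from other narrow regions could change sign. All 12 stayed positive, from 0.50 to 7.94 points. None of these alternatives weighted the other narrow regions by strength. With that weighting their share in both was 27.6%, above the 27.0% of the clustered regions. The number of clustered regions was 576 with gaps up to 2500 bp, 2662 with gaps up to 10000 bp, 707 with chains of 8 or more and 480 with q of 0.001 or less before chaining. The share in both replicates was 30.4% with gaps up to 2500 bp, 16.5% for widths under 500 bp, 32.2% for widths under 2000 bp, 44.0% with the stricter q and 24.5% when 50% of the region had to be covered. The share in neither was 39.8%, 28.8%, 11.3% and 36.6% under the last 4 of these, 28.8% without chromosome I and 29.2% without regions under 50 bp, an alternative added after the data were seen. The difference from other narrow regions was 6.75 points with gaps up to 2500 bp, 0.50 for widths under 500 bp, 6.54 under 2000 bp and 7.94 with the stricter q. The median −log10 q was 4.33, 3.26, 4.37 and 5.73 in the same order, and 4.26 without regions under 50 bp. The cause of these shifts was not tested; a stricter q and other widths change which regions enter. With support from 1 replicate alone, the share present ranged from 31.5% to 63.8%, the share absent from 36.2% to 68.5% and the difference from 2.07 to 3.83 points; without replicate 2 its interval included 0, from −0.83 to 4.91, as it did for widths under 500 bp, from −2.01 to 3.24. No paired analysis was possible because no region list of the inputs is used here. Depth is unknown, which leaves the smaller number of replicate 2 regions without a reading in terms of binding.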

Other observations

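In 18 of the 197 dense chains no region of any width was present in both replicates. They held 119 clustered narrow regions. These chains were 6 of the 25 dense chains on I, 3 of 46 on III and 3 of 28 on V. A further 2 of 31 were on II, 2 of 52 on IV and 2 of 15 on X. The one with most regions, 10 from 10396253 to 10411515 on I, had 5 regions in replicate 1 only and 5 in neither, and its strongest, from 10406012 to 10406554, had a −log10 q of 13.5 in the combined list. At the weak end, a chain of 6 on V from 13104951 to 13116467 had no region above 3.01, and 5 of its 6 regions were in neither replicate. Replicate 2 had no region at all in 15 of the 18. A chain of 6 on X, from 11056947 to 11068781, had all 5 narrow regions in replicate 1 and none in replicate 2, with up to 8.87 in the combined list.

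The densest packing by span was a chain of 6 narrow regions in 4628 bp on V, from 6349880 to 6354507. Of these, 1 was in both replicates and 2 were in neither, and the strongest, from 6350967 to 6351553, had a −log10 q of 13.4.

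Very short calls had a similar share inside and outside the clusters. Of the clustered regions, 66 were under 50 bp, or 4.95%, and of the other narrow regions 252, or 4.42%. The 66 had a median −log10 q of 2.51 and at most 5.31. None was in both replicates and 43 were in neither, or 65.2%, against 31.7% of all clustered and 31.5% of all combined regions. Weak narrow regions in general were mostly in neither. In the strength class from 2.25 to 2.52 the share was 74.6% for clustered and 79.6% for other narrow regions.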
